A study of Danio rerio with 6 samples.

Results

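The genes described here encode bicarbonate and anion exchangers of the slc4 and slc26 families, measured by RNA-seq in the kidney of adult zebrafish (Danio rerio). They were chosen by name: 10 names were taken, ENSDARG00000028173 and ENSDARG00000052330 (the slc4a2 copies), slc4a3, slc4a4a, slc4a4b, slc4a7, slc26a1, slc26a3.2, slc26a4 and slc26a6. These names led to 11 genes of the 31953 in the count table. The table of gene names holds no slc4a4a or slc4a4b, so both genes named SLC4A4 were taken, ENSDARG00000013730 and ENSDARG00000044808, and which is which is not given. It holds no slc26a3.2 either, and the gene named SLC26A3 was taken for it. The name slc26a6 matched 2 genes, ENSDARG00000054127 and ENSDARG00000097292. Another 15 genes carry an slc4a or slc26a symbol, among them slc4a1ap, which encodes an adaptor protein named after slc4a1 and no transporter.

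All 6 libraries came from adult fish carrying Tg(slc12a3:mCherry), a transgene that makes the distal late (DL) segment of the adult kidney, the mesonephros, fluoresce red under the slc12a3 promoter. In 3 libraries, labelled mCh+, the RNA was from DL segments dissected by hand. The other 3, labelled mCh-, were from the mesonephros without DL segments and are called the rest. The labels do not say whether libraries came from separate fish or pools, so p-values cover just the spread among these libraries, part or all of which may be technical. The comparison asks which transcripts differ between the DL segment and the rest of the organ.

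Both families move bicarbonate and other anions across cell membranes. The slc4 family holds chloride-bicarbonate exchangers (slc4a1, slc4a2 and slc4a3) and sodium-bicarbonate cotransporters (slc4a4, slc4a5, slc4a7 and others). The slc26 family exchanges chloride, bicarbonate, sulfate, oxalate or iodide, depending on the member. In mammalian kidney, slc4 proteins return bicarbonate to blood through the basolateral membrane, and slc26 proteins serve chloride, sulfate and oxalate handling. The DL segment is the zebrafish counterpart of the mammalian distal convoluted tubule, where the slc12a3 cotransporter takes up sodium and chloride.

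The libraries held between 9320756 and 22776825 counts, and between 19413 and 21848 genes were detected. DL replicate 1 and rest replicate 3 stood apart: a single gene, si:dkey-153m14.1, took 38.3% and 36.9% of their counts, and their TMM factors were 0.52 and 0.53 against 1.14 to 1.80 in the others. In those others the top gene was ENSDARG00000080337. It took 22.2% and 21.1% of counts in DL replicates 2 and 3, against 12.7% and 11.9% in rest replicates 1 and 2. Levels are given as CPM, the count scaled to the TMM-scaled library size, with the libraries of a group in the order of replicates 1 to 3. As the check of the dissection, SLC12A3 had 251, 905 and 32.9 CPM in the DL libraries, against 41.9, 30.4 and 43.0 CPM in the rest libraries. DL replicate 3 as labelled thus lay inside the rest range for the gene whose promoter drives the reporter. Over all 6 libraries SLC12A3 was not called by edgeR (log2 fold change 3.37 ± 0.92, SE, adjusted p = 0.292), while DESeq2 called it higher in DL (3.38, adjusted p = 0.00493). Without DL replicate 3 edgeR called it higher as well (3.96 ± 0.64, SE, adjusted p = 0.0439), and without DL replicate 2 its log2 fold change was 1.89 (adjusted p = 0.901 by edgeR). GATA3 and EMX1, genes of the distal nephron, were higher in each DL library than in each rest library, as were 6.82% of all genes tested. GATA3 had 49.8 CPM or more against 28.3 CPM or less, and EMX1 48.1 CPM or more against 30.4 CPM or less. Neither was called by edgeR (adjusted p = 0.162 and 0.332). DESeq2 called GATA3 higher (adjusted p = 0.00343) but not EMX1 (adjusted p = 0.0548). Both come from a marker list drawn up with earlier results of these data known.

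Among the chloride-bicarbonate exchangers, the slc4a2 copy ENSDARG00000028173 had the largest fold change of the 9 members that passed the low-count filter. The gene encodes an exchanger found in many epithelia that brings chloride into the cell and bicarbonate out of it. It had 1445, 1499 and 355 CPM in the DL libraries, against 234, 117 and 95.7 CPM in the rest libraries. The groups did not overlap, and DL replicate 3 was the lowest DL library, nearer to rest replicate 1 than to the other DL libraries. It averaged 1100 ± 646 CPM over DL libraries, against 149 ± 74.7 CPM over rest libraries (SD, n = 3 each). The fold change was 7.38, a log2 difference of 2.88 ± 0.70 (SE, 95% interval 1.35 to 4.42). Over all 17083 genes tested it did not pass edgeR's quasi-likelihood test (adjusted p = 0.216, unadjusted p = 0.00158), and it ranked 123 by p. DESeq2 called it higher in DL at a log2 fold change of 2.90 ± 0.62 (adjusted p = 0.000641), and edgeR did so without a low-count filter (adjusted p = 0.0306). Without DL replicate 3 the log2 fold change was 3.33 (adjusted p = 0.0709), and with both low-TMM libraries left out (DL replicate 1, rest replicate 3) it was 2.42 (adjusted p = 0.833). In a dissected tissue, more cells of a type and more RNA per cell cannot be told apart.

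The other slc4a2 copy, ENSDARG00000052330, showed no such excess. It had 23.3, 11.3 and 23.3 CPM in the DL libraries, against 17.9, 26.1 and 43.2 CPM in the rest libraries. The groups overlapped, with rest replicate 3 highest and DL replicate 2 lowest. It averaged 19.3 ± 6.95 CPM over DL libraries, against 29.1 ± 12.9 CPM over rest libraries (SD, n = 3 each). Its log2 fold change was -0.59 ± 0.51 (SE, 95% interval -1.71 to 0.53), and it was not called by edgeR (adjusted p = 0.983). The upper bound of that interval lay below the lower bound for the first copy, although the overlap of intervals is no test of a difference.

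The ratio of the copies was therefore compared within each library, where scaling drops out. Of the counts on both copies, the first took 98.4%, 99.3% and 93.8% in DL replicates 1 to 3, against 92.9%, 81.7% and 68.9% in rest replicates 1 to 3. The exact binomial 95% intervals were 98.2% to 98.6%, 99.2% to 99.3% and 93.1% to 94.6% in DL, and 92.3% to 93.5%, 80.2% to 83.2% and 65.6% to 72.1% in the rest. They cover counting error only. Each DL library had a larger share than each rest library. DL replicate 3 and rest replicate 1 were nearest to each other, and their intervals overlapped. The log2 ratio averaged 5.64 ± 1.58 in DL and 2.34 ± 1.29 in the rest (SD, n = 3 each), a difference of 3.30. An exact two-sided permutation test gave p = 0.1, the smallest that 3 against 3 libraries allow. That p says no more than that the groups did not overlap, and the ratio was chosen with results of these data known. The difference was 4.16 without DL replicate 3 and 3.99 without rest replicate 1, and it was 2.60 without DL replicate 2 and 2.71 without rest replicate 3. A longer transcript gives more counts, so the share within a library is not one of molecules, and differences between shares depend on length too. A length difference between the copies drops out of the difference in log2 ratio between groups. Counts were not whole in 1 of 6 libraries for each copy. With at most 4 significant digits given, a fraction cannot show in a count of 4 or more digits. Sharing of reads between the slc4a2 copies was not tested.

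**Figure D1:**
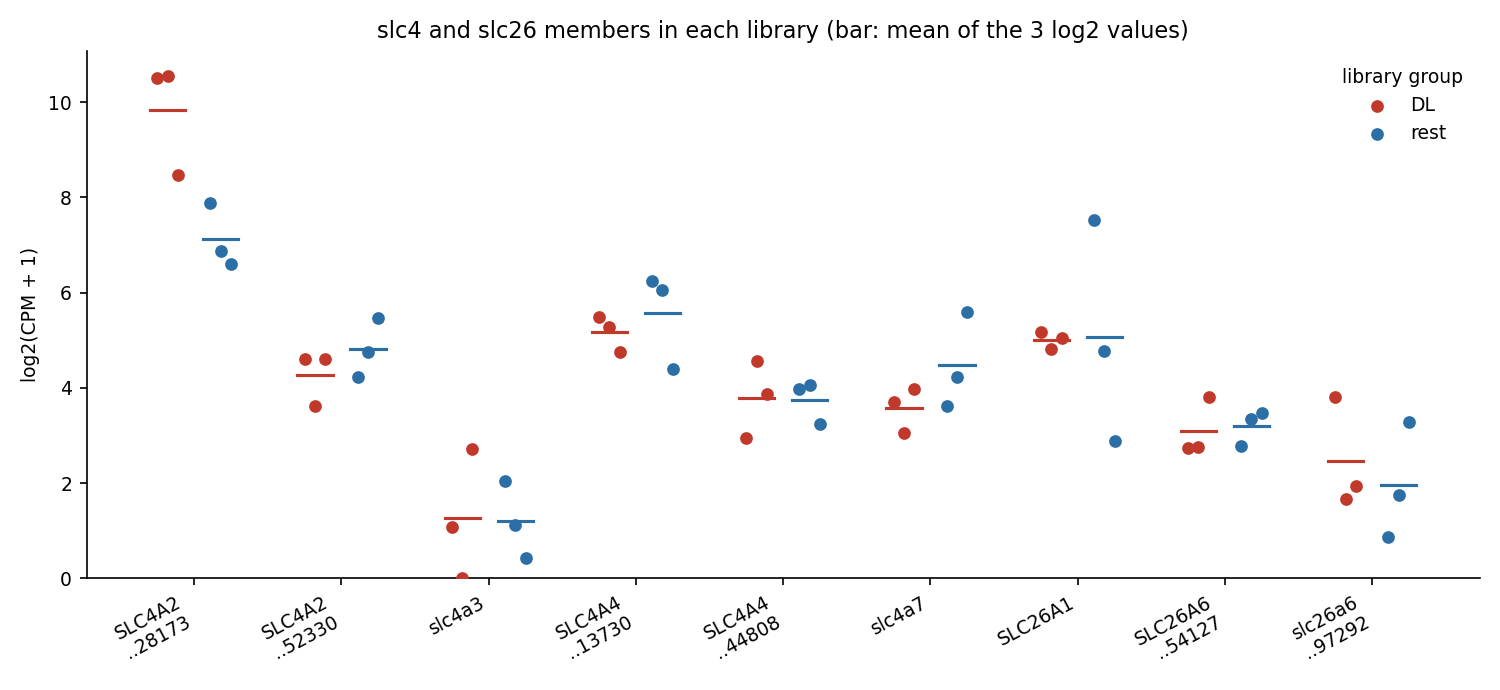
Level of each of the 9 tested members in each library, as log2(CPM + 1), with DL in red left of the rest in blue and a bar at the mean of the log2 values. The 3 DL points of the slc4a2 copy ENSDARG00000028173 lie above its 3 rest points, which stand between 95.7 and 234 CPM, while the groups of the other 8 members overlap.

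The third exchanger of this branch, slc4a3, is known in mammals from heart and brain. It had 1.11, 0 and 5.58 CPM in the DL libraries, against 3.14, 1.19 and 0.339 CPM in the rest libraries. DL replicate 3 and rest replicate 1 were the highest libraries, and the groups overlapped. Its log2 fold change of 0.48 ± 1.63 (SE) has a 95% interval of -3.09 to 4.06, so that neither a large excess nor a large deficit could be excluded. Without DL replicate 3 it was -1.57. Counts of slc4a3 were not whole numbers in 5 of 6 libraries, as happens when reads are divided among genes.

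The 3 members that encode sodium-bicarbonate cotransporters, the SLC4A4 copies and slc4a7, had log2 fold changes between -1.17 and 0.14, none called by edgeR or DESeq2. SLC4A4 encodes the cotransporter that in mammals carries bicarbonate out of proximal tubule cells. Its copy ENSDARG00000013730 had 43.8, 38.1 and 25.9 CPM in the DL libraries, against 74.8, 65.3 and 20.2 CPM in the rest libraries. The highest values were in rest replicates 1 and 2 and the lowest in rest replicate 3, so the groups overlapped. The log2 fold change was -0.58 ± 0.52 (SE, 95% interval -1.72 to 0.57, adjusted p = 0.987 by edgeR).

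The copy ENSDARG00000044808 had 6.67, 22.5 and 13.6 CPM in the DL libraries, against 14.6, 15.6 and 8.47 CPM in the rest libraries. The DL libraries held both the lowest and the highest value. The log2 fold change was 0.14 ± 0.58 (SE, 95% interval -1.12 to 1.41), and with library size as the only scaling its sign turned (-0.27). This copy, too, had counts that were not whole in 5 of 6 libraries.

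The gene slc4a7 encodes an electroneutral sodium-bicarbonate cotransporter that loads cells with base. It had 11.9, 7.30 and 14.7 CPM in the DL libraries, against 11.3, 17.9 and 47.3 CPM in the rest libraries. Rest replicate 3, one of the libraries with low TMM factors, was far above the other 5, and rest replicate 1 lay inside the DL range. The log2 fold change was -1.17 ± 0.61 (SE, 95% interval -2.49 to 0.15, adjusted p = 0.802 by edgeR). Without rest replicate 3 it was -0.35.

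Among slc26 genes, SLC26A1 encodes an exchanger of sulfate, oxalate and bicarbonate, which in mammals lies in the basolateral membrane of the proximal tubule. It had 35.0, 27.3 and 31.9 CPM in the DL libraries, against 183, 26.3 and 6.44 CPM in the rest libraries. The DL libraries lay close together, and the rest libraries spread to both sides of them. It averaged 31.4 ± 3.90 CPM over DL libraries, against 72.1 ± 97.0 CPM over rest libraries (SD, n = 3 each), and the log2 fold change was -1.20 ± 0.91 (SE, 95% interval -3.22 to 0.81). It was 0.93 without rest replicate 1, so that this library decided the direction. That library also had the highest sum over 16 proximal tubule marker genes, at 1440 CPM. The sum was 791 to 862 CPM in DL and 1025 and 758 CPM in rest replicates 2 and 3. Of those 16 genes, MIOX was at 0 in all libraries, and none was called by edgeR. The part of proximal tubule content in the SLC26A1 values was not tested.

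SLC26A6 encodes an apical exchanger of chloride with bicarbonate, oxalate or formate in the mammalian proximal tubule. The copy ENSDARG00000054127 had 5.70, 5.75 and 13.0 CPM in the DL libraries, against 5.87, 9.21 and 10.17 CPM in the rest libraries. The copy ENSDARG00000097292 had 13.1, 2.19 and 2.84 CPM in the DL libraries, against 0.822, 2.38 and 8.81 CPM in the rest libraries. In both copies the groups overlapped, and in the second the libraries with low TMM factors, DL replicate 1 and rest replicate 3, were the highest. The log2 fold changes were -0.04 ± 0.63 and 0.61 ± 1.03 (SE), with 95% intervals of -1.41 to 1.33 and -1.65 to 2.87. The direction of the second copy rested on DL replicate 1, without which it was -0.58, and it was 1.92 without rest replicate 3. Without DL replicate 3 the log2 fold changes of the first and second copy were -0.51 and 0.996. In the RefSeq gene table for GRCz12tu, slc26a6.1 and slc26a6.2 are neighbours, but which copy here is which is not given. Counts were not whole in 5 of 6 libraries for ENSDARG00000097292 and in 1 of 6 for ENSDARG00000054127. Sharing of reads between the copies was not tested.

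The 2 members that did not pass the filter were SLC26A3 and SLC26A4. In the same RefSeq table slc26a3.2 and slc26a4 are neighbours, but whether the gene named SLC26A3 is slc26a3.2 is not given. SLC26A3 belongs to a chloride-bicarbonate exchanger known from mammalian intestine, and had 0, 0 and 8 counts in DL replicates 1 to 3, against 0 in all 3 rest libraries. SLC26A4, pendrin, which exchanges chloride for bicarbonate or iodide and marks base-secreting intercalated cells in mammals, had 0, 1.79 and 6.01 counts in DL replicates 1 to 3, against 40.0, 0.35 and 0 in rest replicates 1 to 3. Each was thus seen mainly in a single library. A count of 0 allows up to 3 counts, equal to 0.113 to 0.417 CPM across DL and 0.0913 to 0.508 CPM across rest libraries. The tandem gene slc26a3.1 had 0 counts in all 6 libraries. Among the genes fixed for intercalated cells and ionocytes, foxi3b had 0 counts in every library, and foxi1, foxi3a and GCM2 reached at most 0.265, 0.851 and 1.69 CPM. TFCP2L1 stood at 4.82 to 24.2 CPM in DL and 4.74 to 22.8 CPM in the rest.

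Counted over the 9 tested members, 0 were called higher and 0 lower by edgeR over all genes, against backgrounds of 0.0644% and 0% of 17083 genes. At an unadjusted p under 0.05, 1 member was higher and 0 were lower, against 4.09% and 2.73% of all genes. DESeq2 called 1 member higher and 0 lower, against 1.22% and 0.411% of 19225 genes. The one member was the slc4a2 copy ENSDARG00000028173 each time. Without DL replicate 3, edgeR called 51 genes higher and 2 lower of the 18518 then tested, and 0 of the 9 members. With so small a share over all genes, that 0 is no result about the members. The slc4a2 copy ENSDARG00000028173 was also the one whose DL libraries all lay above the rest, as for 6.82% of all genes, and no member lay wholly below, as for 6.28%. The median log2 fold change of the 9 was -0.04, beside -0.07 over all genes tested, with 4 positive and 5 negative.

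**Figure D2:**
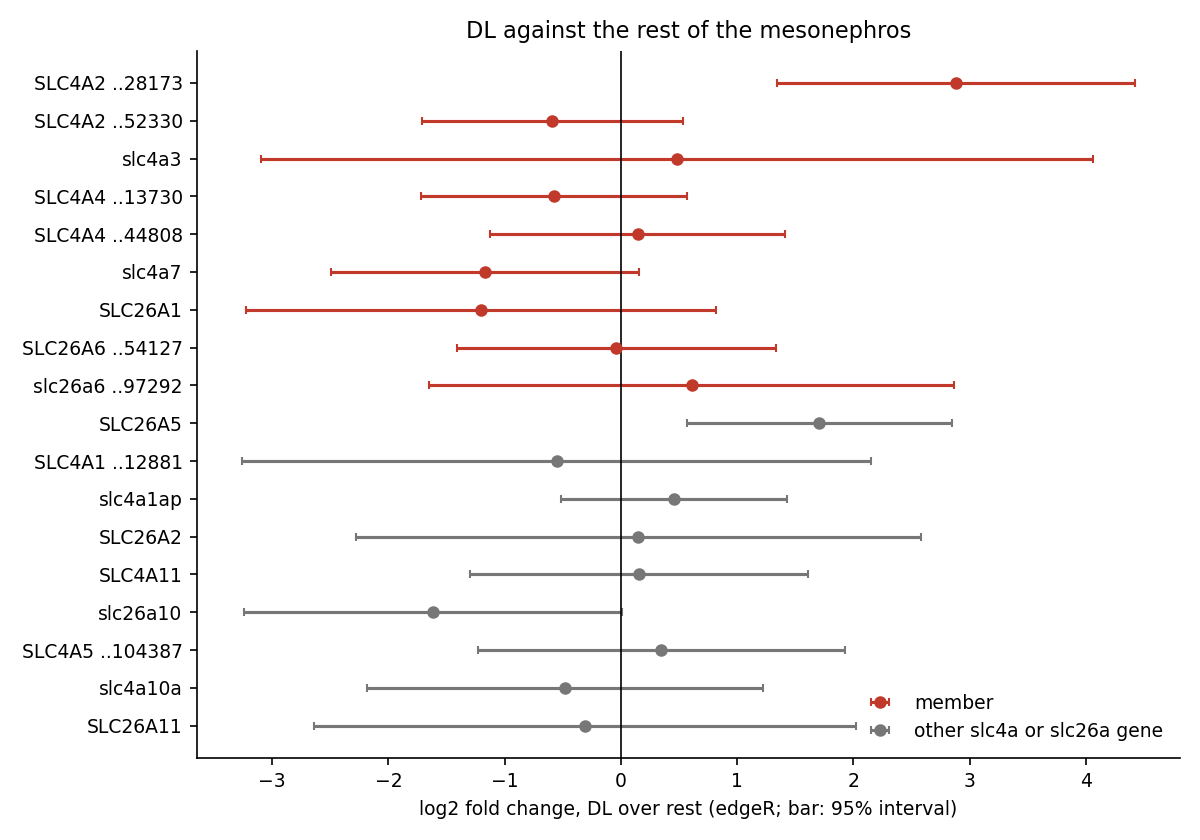
The log2 fold change of DL over the rest for each tested member (red) and each other tested gene with an slc4a or slc26a symbol (grey), with 95% intervals from edgeR. Only the intervals of SLC4A2_ENSDARG00000028173 (1.35 to 4.42) and SLC26A5 (0.57 to 2.84) lie wholly above 0, and these intervals are not adjusted for the number of genes.

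Of the 15 other genes with such symbols, 9 passed the filter, 5 with positive and 4 with negative fold changes, and edgeR and DESeq2 called none of them. At an unadjusted p under 0.05 there was 1, SLC26A5, higher in DL as were 4.09% of all genes tested. Its product, prestin, is a motor protein of mammalian outer hair cells and an anion exchanger in fish. SLC26A5 had 81.0, 79.3 and 39.9 CPM in the DL libraries, against 24.9, 26.8 and 9.32 CPM in the rest libraries. Each DL library lay above each rest library, as for 6.82% of all genes tested, and the log2 fold change was 1.71 ± 0.52 (SE, adjusted p = 0.385 by edgeR). The other gene without overlap, the adaptor slc4a1ap, stood at 20.6 to 33.6 CPM in DL and 18.6 to 18.8 CPM in the rest (log2 fold change 0.45 ± 0.44).

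SLC4A1 encodes the anion exchanger of red blood cells, band 3. Its copy ENSDARG00000012881 had 1.95, 6.80 and 70.0 CPM in the DL libraries, against 11.1, 29.4 and 75.6 CPM in the rest libraries. DL replicate 3 lay with rest replicate 3 and not with the other DL libraries. The sum over 7 erythroid marker genes was 46.7, 39.3 and 687 CPM in the DL libraries, against 106, 689 and 336 CPM in the rest libraries. None of the 7 was at 0 throughout, and blood content as the source of the SLC4A1 values was not tested. The copy ENSDARG00000024560 had at most 11.04 counts in a library.

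**Figure D3:**
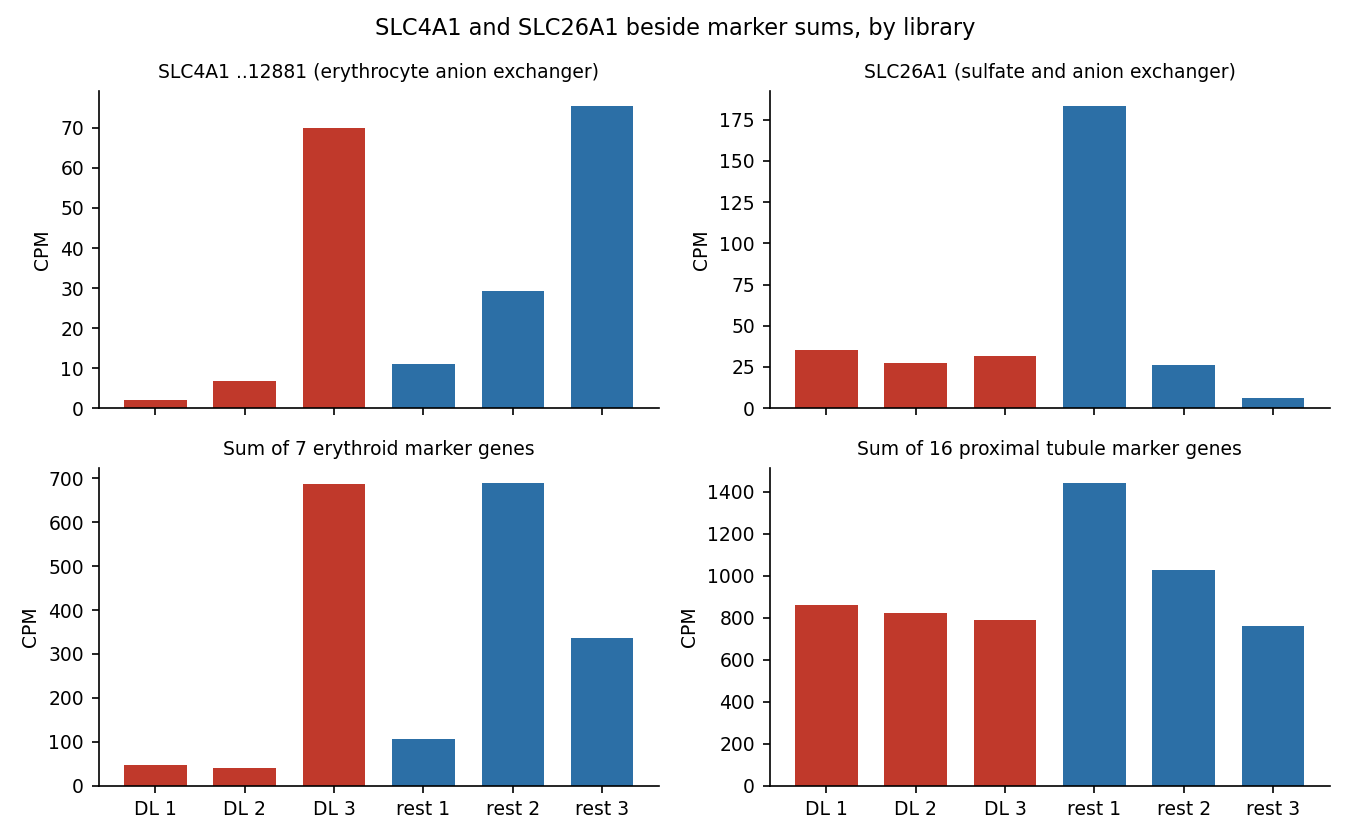
CPM per library of SLC4A1_ENSDARG00000012881 and SLC26A1 (top) and of the summed erythroid and proximal tubule marker genes (bottom), with DL in red and the rest in blue. DL replicate 3 is the DL library with high SLC4A1 (70.0 CPM) and a high erythroid sum (687 CPM), and rest replicate 1 has the highest SLC26A1 (183 CPM) and the highest proximal tubule sum (1440 CPM). Among rest libraries, SLC4A1 is highest in replicate 3 (75.6 CPM) and the erythroid sum in replicate 2 (689 CPM).

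Of the other tested genes, slc26a10 had 4.45 to 6.81 CPM in DL, against 37.5, 9.21 and 4.91 CPM in the rest libraries, with a log2 fold change of -1.61 ± 0.74 (SE, unadjusted p = 0.0516 by edgeR). Like SLC26A1 it was highest in rest replicate 1. SLC26A2, a sulfate transporter gene, stood at 2.19 to 14.2 CPM in DL and 0.169 to 17.6 CPM in the rest, again with rest replicate 1 highest. SLC4A5_ENSDARG00000104387, SLC4A11, slc4a10a and SLC26A11 had log2 fold changes between -0.48 and 0.35, with overlapping groups. The 6 genes that did not pass the filter were slc26a3.1 and slc26a6l2, both at 0 throughout, the SLC4A1 copy ENSDARG00000024560, the SLC4A5 copy ENSDARG00000002771, SLC4A8 and SLC4A10.

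Taken as shares of all counts on slc4a and slc26a genes, the slc4a2 copy ENSDARG00000028173 held 82.3%, 86.0% and 53.9% in DL replicates 1 to 3, against 34.7%, 30.0% and 24.2% in rest replicates 1 to 3. The groups did not overlap. These are shares of counts and not corrected for transcript length, and they rest on the same counts as the fold change of this copy. The total includes the adaptor slc4a1ap, at 1.18% to 4.79% per library. It also includes SLC4A1_ENSDARG00000012881, which took 10.6% in DL replicate 3 and 19.1% in rest replicate 3, but 0.11% in DL replicate 1. The summed level of the other 10 members was 141, 114 and 132 CPM in the DL libraries, against 313, 164 and 145 CPM in the rest libraries. The excess in rest replicate 1 lay largely in SLC26A1, and with it left out, a choice made after the values were seen, the sums were 87.2 to 106 CPM in DL and 130 to 138 CPM in the rest.

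**Figure D4:**
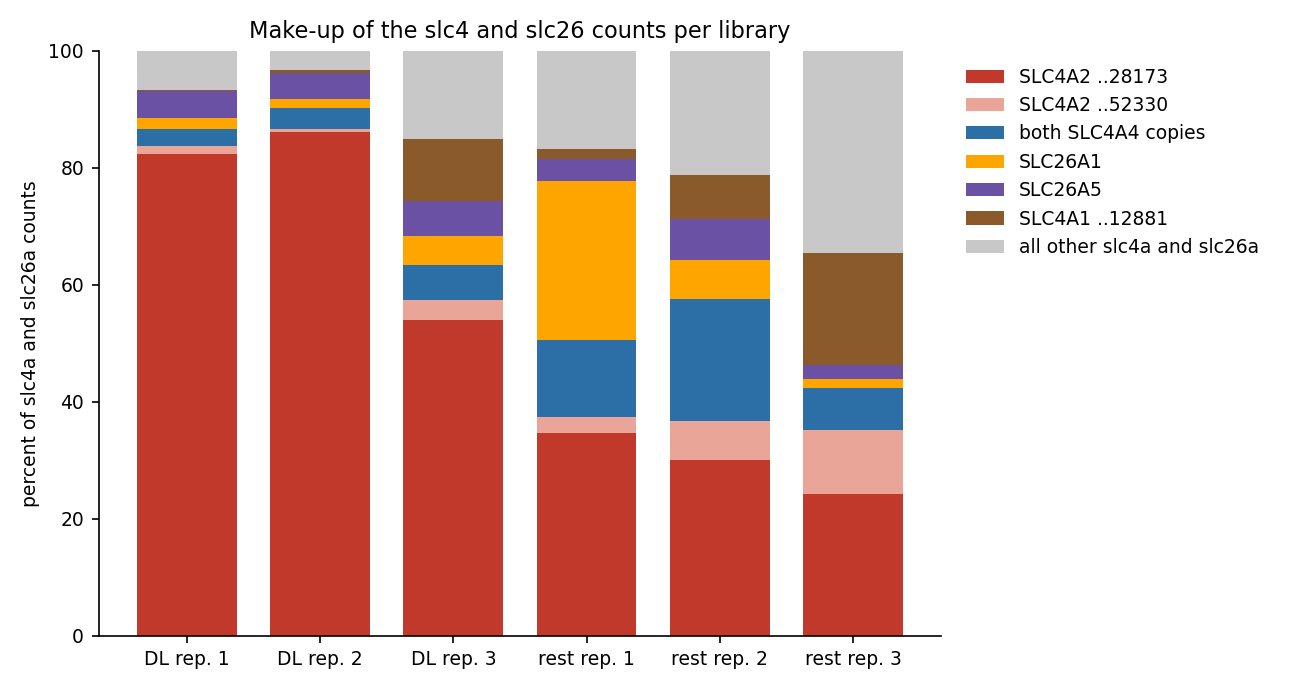
Percent of all slc4a and slc26a counts in each library that fell on the named genes. The slc4a2 copy ENSDARG00000028173 takes 53.9% to 86.0% in the DL libraries and 24.2% to 34.7% in the rest libraries, and SLC26A1 takes 27.2% in rest replicate 1.

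Genes that work beside these exchangers were followed in lists of acid-base and chloride partners, drawn up with results on several of them known. The acid-base list named carbonic anhydrases, which make bicarbonate, sodium-proton exchangers, ammonia channels and proton pump subunits. Of its 26 genes 18 passed the filter, of which edgeR called 2 higher and 0 lower and DESeq2 6 higher and 0 lower, with a median log2 fold change of 0.21. Of all genes tested, edgeR called 0.0644% and DESeq2 1.22% higher, and the median was -0.07. The 2 genes called by edgeR were slc9a3.2, a sodium-proton exchanger gene averaging 737 ± 466 CPM over DL libraries, against 19.2 ± 9.99 CPM over rest libraries, and ca4c, a membrane carbonic anhydrase gene averaging 219 ± 159 CPM over DL libraries, against 4.59 ± 1.60 CPM over rest libraries (SD, n = 3 each). Among the negative changes, NHERF1_ENSDARG00000000068, a scaffold of apical transporters, had a log2 fold change of -1.20 ± 0.51 (SE), which DESeq2 did not call.

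The chloride list named slc12 cotransporters and chloride channels. Of its 15 genes 13 passed, of which edgeR called 1 higher, slc12a10.3, and DESeq2 4 higher, with 0 lower by either and a median log2 fold change of 0.38, beside the same shares and median over all genes. A relative of slc12a3, slc12a10.3 averaged 1115 CPM over DL libraries, against 30.02 CPM over rest libraries. The gene bsnd, for the accessory subunit of the basolateral chloride channel, had a log2 fold change of 3.39 ± 0.78 (SE, adjusted p = 0.182 by edgeR). It was among the 4 called higher by DESeq2 (3.41, adjusted p = 0.00249). Just 3 of the 13 had negative changes. The smallest p among them were those of SLC12A7, a potassium-chloride cotransporter gene, and slc12a10.2, at -1.07 ± 0.52 and -0.45 ± 0.54. Neither was low (unadjusted p = 0.0647 and 0.426 by edgeR).

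By Pearson's r over the 6 libraries on log2 CPM, the 6 genes most like the slc4a2 copy ENSDARG00000028173 among 2508 genes of at least 5 log2 CPM on average were TNFAIP8L3 (r = 0.997), SFXN3 (0.994), SNTB1 (0.992), PLD2 (0.992), ACADVL (0.992) and GATA3 (0.990). Such likeness was common, since 169 of the 2508 genes had an r over 0.9. TNFAIP8L3 had 91.6, 102 and 28.8 CPM in the DL libraries, against 20.2, 12.2 and 7.96 CPM in the rest libraries, and so had the same order of libraries. Within the families, SLC26A5 had an r of 0.93, SLC26A1 0.23, the SLC4A4 copy ENSDARG00000013730 0.05 and the SLC4A1 copy ENSDARG00000012881 -0.79. These values describe 6 libraries that share their groups and the scaling.

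Marker lists of other cells gave the setting of these values. The lists for the proximal tubule, erythroid cells, neutrophils, macrophages, lymphoid cells, endothelium, podocytes and stroma had median log2 fold changes between -2.13 and -0.38, and those for the early distal tubule and multiciliated cells 1.03 and 0.83. The macrophage list was mixed, with 3 of its 6 tested genes positive and 3 negative. Its sums were 297, 628 and 651 CPM in the DL libraries, against 745, 319 and 167 CPM in the rest libraries. The neutrophil sum was 1429 CPM in rest replicate 2, against 85.0 and 41.3 CPM in rest replicates 1 and 3. Across DL libraries the neutrophil sum was 14.5 to 359 CPM. The 4 distal late genes SLC12A3, EMX1, clcnk and GATA3 had a median of 2.88, with 0 called by edgeR and 3 called higher by DESeq2. Among all the other marker lists edgeR called no gene, and DESeq2 called 2 of 8 stromal genes lower, both fibronectin copies, and PPP1R1B of the early distal list higher. Over all genes edgeR called 0.0644% higher and 0% lower, and DESeq2 1.22% and 0.411%. The marker lists were drawn up with earlier results of these data known. Summed endothelial markers had 212, 359 and 668 CPM in the DL libraries, against 583, 542 and 499 CPM in the rest libraries. The stromal sums were 1952, 159 and 976 CPM in the DL libraries, against 1695, 1271 and 3506 CPM in the rest libraries. Markers of other cells were thus detected in DL libraries. DL replicate 3 had the highest endothelial and a high erythroid sum. It also had the lowest DL levels of SLC12A3 and of the slc4a2 copy ENSDARG00000028173, the latter still above each rest library. The stromal sum, however, was highest among DL libraries in replicate 1, where that slc4a2 copy had 1445 CPM. The part of other cells in the slc4a2 values was not tested.

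**Figure D5:**
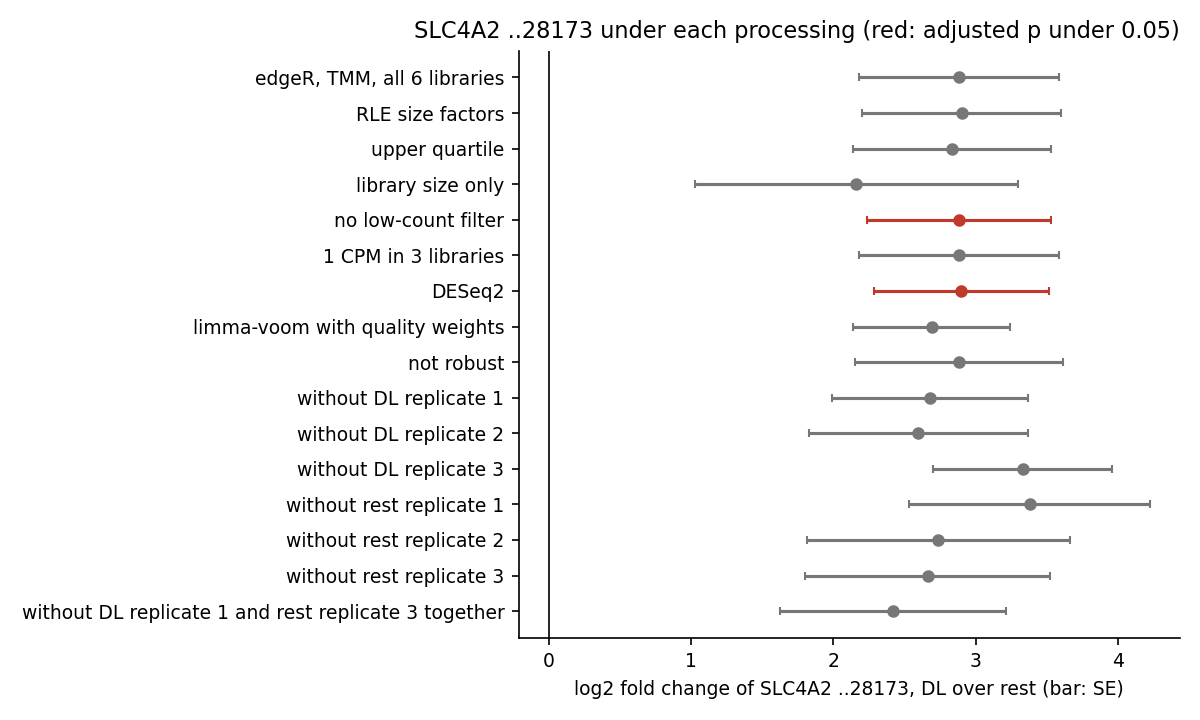
The log2 fold change of the slc4a2 copy ENSDARG00000028173, DL over the rest, under each processing, with its SE. All 16 values lie between 2.16 and 3.38, and DESeq2 and edgeR without a low-count filter are the settings with an adjusted p under 0.05.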

How the data were processed

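The deposited table holds expected counts per Ensembl gene, partly fractional, with at most 4 significant digits. Aligner, counter and genome build were not given in the sources used here. Per the labels' protocols, RNA from hand-dissected tissue was purified (Macherey-Nagel) and turned into libraries with a NuGEN Ovation kit for single cells. Columns were assigned to libraries by title. Replicate numbers follow deposition order.

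Counts were rounded, and filterByExpr by group left 17083 genes. DL was compared with the rest in edgeR 4.0.16 (R 4.3.3) by the quasi-likelihood F test with TMM scaling, robust dispersions and Benjamini-Hochberg adjustment over all genes at 0.05. Each standard error was taken as |log2 fold change| divided by √F. Alternatives included DESeq2 1.42.0 and limma-voom (limma 3.58.1). The fit was tested on simulated data.

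A name table gave symbols for 26121 genes. Members, lists and tests were chosen with earlier results of these data known. The text names all members, every filtered-in gene with an slc4a or slc26a symbol, the 6 genes most like slc4a2 ENSDARG00000028173, and by rule genes of each list, of which not all are reported here. No sequence or coordinate is given. Overlapping, antisense or near-identical genes can share reads.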

Additional observations from a re-analysis of the deposited data

How the results depend on the processing

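The slc4a2 copy ENSDARG00000028173 kept a positive log2 fold change in all 15 alternatives, from 2.16 to 3.38. Its adjusted p ranged from 0.000641 to 0.999. It passed without a low-count filter (2.89) and in DESeq2 (2.90), and leaving out single libraries gave 2.60 to 3.38. The count of genes called higher, 11, was 1 with library size only, 99 without a low-count filter, 235 in DESeq2, 36 in limma-voom, 0 without robust dispersions and 0 with DL replicate 1 and rest replicate 3 both left out. It was 0 to 51 without single libraries, the 51 being without DL replicate 3 and the 0 without any other. The count called lower, 0, was 7 without a filter, 79 in DESeq2 and 0 to 2 without single libraries. The cause was not tested.

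Signs that turned were those of members with intervals across 0. For slc4a3 the log2 fold change was -0.16 with library size only, -1.98 in limma-voom and -1.57 to 1.49 without single libraries. For SLC4A4_ENSDARG00000044808 it was -0.27 with library size only and -0.35 to 0.52 without single libraries. SLC26A1 had 0.095 in limma-voom and -1.73 to 0.93, SLC26A6_ENSDARG00000054127 had 0.32 with DL replicate 1 and rest replicate 3 both left out and -0.51 to 0.21, and slc26a6_ENSDARG00000097292 had -0.58 to 1.92. The difference in the log2 ratio of the slc4a2 copies was 2.60 to 4.16 without single libraries. Library size only moved the median of all genes to -0.50, from -0.07 with TMM. No paired analysis was possible because the labels give no numbers that pair DL and rest libraries.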
